A study of Mus musculus with 48 samples.

Results

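Transplanted mouse sarcomas that received 20 Gy of X-rays were compared with unirradiated ones, all of them in mice given an isotype control antibody. The comparison used 8 of the 48 tumours of the series, 4 per dose, chosen by their group label, and it covered the 36854 genes of the count table. The sarcomas were grown in 129/SvJae mice by placing 50000 cells of line 402230 in Matrigel into the calf (gastrocnemius) muscle of syngeneic hosts, whose age the labels do not give. The line is named as a p53/MCA sarcoma line, the same tumour model that the series also induced directly in mice with floxed p53 alleles by Cre adenovirus and the carcinogen 3-methylcholanthrene (MCA). Because 1 line gave all allografts, the 8 tumours are replicates of a host and a treatment, not of a tumour genotype. Tumours of about 150 mm3 were treated, each mouse receiving 200 ug of antibody intraperitoneally and then either 0 Gy or 20 Gy to the whole tumour-bearing hind limb, and the tumours were taken on day 3. The isotype antibody was therefore common to both groups, and the muscle around the irradiated tumours was irradiated too. In 2 further allograft groups of 4 tumours each the antibody was muDX400, a murine antibody against PD-1, again with 0 or 20 Gy. They served here as a second set of tumours under the same doses.

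Ionising radiation breaks DNA. Broken or mislocalised DNA and RNA can be recognised inside the cell by nucleic acid sensors, which switch on interferon beta. Type I interferon then acts through its receptor, the JAK kinases and a complex of STAT proteins with IRF9 that binds interferon-stimulated response elements and turns on a large set of antiviral genes. Radiation also activates the p53 pathway, which can arrest the cell cycle through the CDK inhibitor p21, the product of Cdkn1a. Type I interferon and its induced enzyme cholesterol 25-hydroxylase are known to restrain sterol synthesis in macrophages.

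Of 36 antiviral effectors 34 rose at 20 Gy, beside 4.4% of all tested genes, so the DNA before the start site is shown for 6 interferon-stimulated genes, each 80 bases, 5′ to 3′ on the gene's own strand, from RefSeq (GRCm38.p6). Capitals mark every complete match to the core of the interferon-stimulated response element, a pair of GAAA blocks with any 2 bases between them, or a pair of TTTC blocks so spaced where it is read on the other strand.
Isg15, chr4:156200850-156200929, minus strand: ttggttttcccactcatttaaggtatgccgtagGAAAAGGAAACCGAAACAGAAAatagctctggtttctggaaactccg
Ifit1, chr19:34640759-34640838, plus strand: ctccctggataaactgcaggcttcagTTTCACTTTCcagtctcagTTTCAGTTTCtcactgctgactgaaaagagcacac
Ifit3, chr19:34583362-34583441, plus strand: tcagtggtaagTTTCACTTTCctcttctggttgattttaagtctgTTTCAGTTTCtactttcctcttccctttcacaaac
Rsad2, chr12:26456538-26456617, minus strand: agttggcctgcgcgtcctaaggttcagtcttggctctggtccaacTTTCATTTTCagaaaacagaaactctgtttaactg
Cxcl10, chr5:92349060-92349139, minus strand: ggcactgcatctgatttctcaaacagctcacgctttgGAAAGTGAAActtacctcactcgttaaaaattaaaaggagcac
Ifi213, chr1:173599311-173599390, minus strand: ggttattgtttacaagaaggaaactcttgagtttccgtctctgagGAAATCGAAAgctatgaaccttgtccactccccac
In Isg15 overlapping matches form 1 run of capitals. The letters were present in 13.2% of the 741 promoter windows of genes called higher at 20 Gy and in 1.53% of the windows of genes called lower, beside 3.28% of the 15686 windows of all tested genes. Each window ran from 250 bases before to 50 bases after a start site. In the list of antiviral effectors 16 of 34 windows held a match, and in the list of Schlafen and PYHIN genes 13 of 19. A match describes the sequence and shows no binding, and Irf7, Herc6, Slfn4, Oasl1, Cd274 and Ifnb1 had no match in the windows searched.

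The 4 libraries of unirradiated tumours held 39637928 to 44670951 counts and the 4 of irradiated tumours 38040121 to 53307204. Replicates are numbered in the order of the sample records, so a number only names a tumour. Levels are given as CPM, counts scaled to library size, normalised by the trimmed mean of M values. Mitochondrial transcripts took 1.25, 1.12, 1.09 and 2.03% of counts at 0 Gy and 0.937, 0.918, 0.882 and 0.629% at 20 Gy, every irradiated tumour lying below every control, and their part in the results was not tested beyond a fit without these genes and Gm42418, which called 914 genes. In the anti-PD-1 arm described at the end these shares overlapped between doses, at 0.952 to 1.5% and 0.483 to 2.71%. Other content differed between tumours of 1 dose: the sum over 16 skeletal muscle fibre genes ran from 96.5 to 22699.6 CPM at 0 Gy and from 115.6 to 12964 CPM at 20 Gy, lowest in replicate 1 of each dose. Xist, the RNA of the inactive X chromosome of females, was at 0.404, 86.9, 0.136 and 0.317 CPM in 0 Gy replicates 1 to 4 and at 178, 0.0755, 123.7 and 86.3 CPM in 20 Gy replicates 1 to 4. The Y-linked gene Ddx3y was present in all 8 tumours, at 51.8 to 68 CPM and 32.5 to 59 CPM. The number in the sample titles began with 5 for all 4 unirradiated tumours and for 20 Gy replicate 2, and with 4 for the other 3 irradiated tumours, and the labels do not say what that digit stands for. Dose therefore ran largely together with this digit and with Xist, and their part in the results was not tested beyond the values that follow. Trp53, the gene of p53, was measured at 26, 28.6, 38.5 and 30.04 CPM at 0 Gy and at 39.9, 44.5, 43.4 and 41.7 CPM at 20 Gy. Its log2 fold change of 0.46 ± 0.18 (SE) did not pass the test (edgeR's quasi-likelihood test, Benjamini-Hochberg adjusted p = 0.168), and gene-level counts do not show whether exons are deleted.

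Of 17746 genes tested, 912 were called at an adjusted p below 0.05 (edgeR's quasi-likelihood test, Benjamini-Hochberg adjusted), which is 5.14% of them. The 780 genes higher at 20 Gy were 4.4% of all tested genes, and the remaining calls, lower at 20 Gy, were 0.744%. Every list count below is to be read beside these shares. More than 2-fold differences made up 592 of the calls (3.34% of tested genes). In 757 of the higher genes and 85.6% of the lower ones the 4 irradiated and 4 unirradiated tumours did not overlap, and over all tested genes 10.2% lay fully above and 4.46% fully below. 20 Gy replicate 2, which shares the title digit of all 4 controls and the low Xist of 3 of them, lay above all 4 controls in 776 of the 780 higher genes and below all 4 in 97.7% of the lower genes. These values took part in the calls and are a description. With the title digit as a covariate 196 genes were called, and with Xist as a covariate 456. Leaving out 0 Gy replicate 1, 2, 3 or 4 gave 353, 294, 1415 or 302 genes, and leaving out 20 Gy replicate 1, 2, 3 or 4 gave 588, 700, 512 or 450. Without 20 Gy replicate 2 the title digit split the remaining isotype tumours exactly as dose did. Fits chosen after seeing the data gave 5 genes from the tumours with title digit 5 alone (1 irradiated tumour; Ifit3b, Oasl1, Slfn4, Mx2 and Gm12033, DESeq2 62, 955 at an unadjusted p under 0.05), 0 from the tumours with Xist below 10 CPM alone (DESeq2 59, 749 unadjusted) and 146 without replicate 1 of both doses. Of the 79 called genes selected for naming, 47 kept their call whichever 1 of the 8 tumours was left out. Since tumours and not cell types were sequenced, fewer cells of a type and less RNA per cell cannot be told apart in any of these values.

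**Figure D1:**
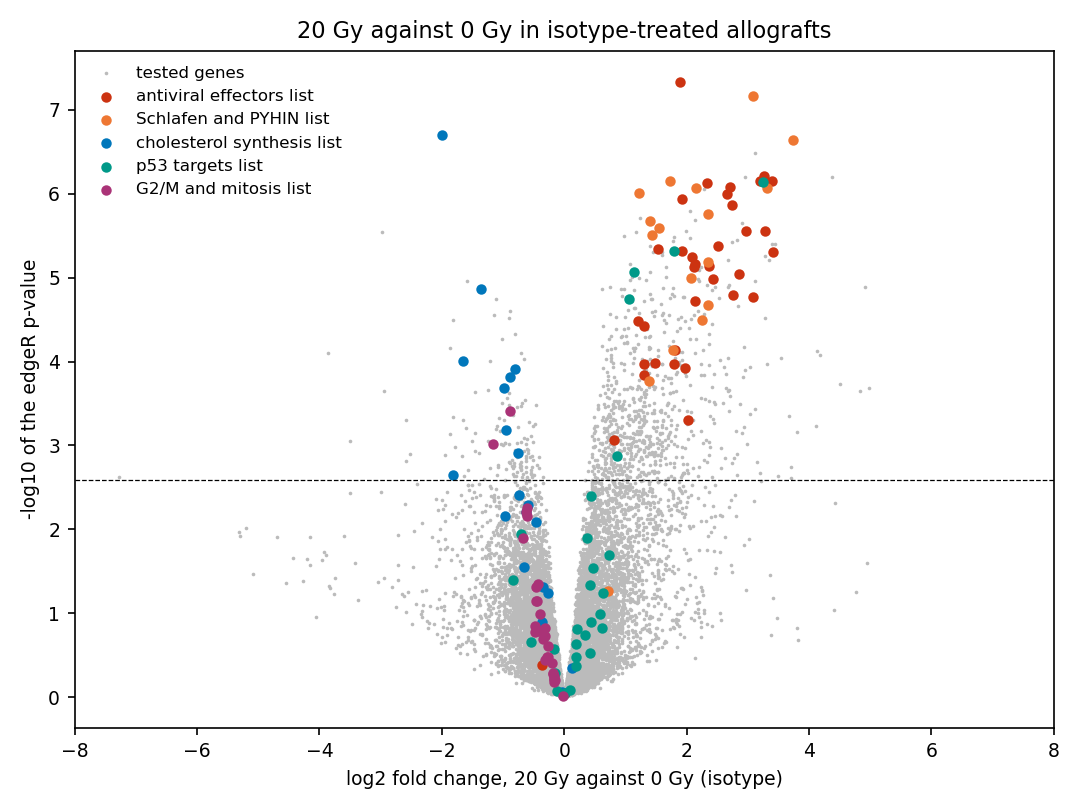
Each point is a tested gene, plotted by the log2 fold change of 20 Gy against 0 Gy (x axis) and by −log10 of the unadjusted edgeR p-value (y axis), with 5 gene lists in colour; genes above the dashed line passed an adjusted p of 0.05. The antiviral effectors (34 of 36 called) and the Schlafen and PYHIN genes (16 of 17 called) lie to the upper right, and the called cholesterol synthesis genes (9 of 20) to the left.

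Interferon beta itself rose. Ifnb1 was at 0.143, 0.135, 0.113 and 0.113 CPM in the 4 unirradiated tumours (5 to 6 reads each) and at 2.22, 0.377, 0.339 and 0.676 CPM in the 4 irradiated ones (12 reads or more). All irradiated tumours lay above all unirradiated ones, with 20 Gy replicate 1 well above the rest. The log2 fold change was 2.83 ± 0.72 (SE; edgeR's quasi-likelihood adjusted p = 0.0329). The call was kept without 20 Gy replicate 2 or 3, was lost without any other 1 tumour, and was lost with the title digit or Xist as a covariate. Ifng, the type II interferon made by T and NK cells, stood at 1.16, 0.834, 2.1 and 0.271 CPM against 0.786, 2.47, 2.85 and 2.21 CPM. Its groups overlapped (log2 fold change 0.92 ± 0.55, adjusted p = 0.413). The 12 other interferon genes found in the table, alpha genes among them, had too few counts to be tested.

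The signalling chain below the receptor was higher in part. Of 18 receptor and JAK-STAT genes 5 rose and 0 fell, among them Usp18, Stat2, Ptpn6 and the receptor subunit gene Ifnar2, with a median log2 fold change of 0.53 beside 0.00 for all tested genes. Stat2, whose product acts together with IRF9, was at 61.6, 58.8, 117.8 and 46.5 CPM without irradiation and at 201, 210.4, 238 and 234 CPM with it. Every irradiated tumour exceeded every unirradiated one, a 3.1-fold difference (adjusted p = 0.00398). Usp18, which restrains signalling at the receptor, rose 7.11-fold (adjusted p = 0.00162), whereas Ifnar1, Jak1 and the interferon gamma receptor genes Ifngr1 and Ifngr2 had log2 fold changes of 0.15, 0.3, 0.18 and 0.25 and were not called. The receptor list held 2 calls without 0 Gy replicate 1, 2 or 4 or 20 Gy replicate 3 or 4, 8 without 0 Gy replicate 3, 2 with either covariate and 10 by DESeq2.

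Among 9 interferon regulatory factors, Irf7, Irf5, Irf9 and Irf8 rose and 0 fell. Irf7, the factor that amplifies interferon production, was at 105.8, 156, 217 and 109.7 CPM at 0 Gy and at 1774, 995, 1062 and 1281 CPM at 20 Gy. The groups were far apart, an 8.69-fold difference (log2 fold change 3.12 ± 0.36, edgeR's quasi-likelihood adjusted p = 0.000909). Irf9 rose 2.26-fold (adjusted p = 0.0015). Irf3, which acts directly below the nucleic acid sensors, had a log2 fold change of 0.1. The count of 4 was 6 without 0 Gy replicate 3 and 3 to 5 in the other fits without 1 tumour.

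Sensors of nucleic acids rose in most cases: 16 of 23 members of the list, which also holds adaptors and kinases, were called higher and 0 lower, with a median log2 fold change of 1.11. Ifih1, the gene of the RNA sensor MDA5, was at 26.7, 31.8, 50.1 and 22.6 CPM at 0 Gy and at 167, 130.6, 124.2 and 152 CPM at 20 Gy. No tumour overlapped (4.38-fold, adjusted p = 0.00141). Tlr9, an endosomal DNA sensor of dendritic cells and macrophages, rose 4.68-fold (adjusted p = 0.00961), although 0 Gy replicate 3 stood at 53.3 CPM while the other controls were at 12.9 to 19.1 CPM. That call was lost without 0 Gy replicate 2 and with the title digit as a covariate. The RNA sensor gene Ddx58 rose 3.16-fold and the DNA sensor gene Cgas 1.52-fold, while Tmem173, the gene of STING, gave a log2 fold change of 0.55 ± 0.2 that was not called. Tbk1, Mavs and the 3 RNase H2 subunit genes also did not pass the test. The list held 10 to 12 calls without 0 Gy replicate 1, 2 or 4 or 20 Gy replicate 1, 3 or 4, 11 with Xist and 10 with the title digit as a covariate.

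The antiviral effectors rose almost without exception. Of 36 members 34 rose and 0 fell, the exceptions being Ifitm2 and Ifitm1 with log2 fold changes of 0.02 and −0.37, and the median was 2.13. Isg15, a ubiquitin-like protein joined to other proteins during the interferon response, was at 59.7, 68.5, 72.1 and 52.9 CPM at 0 Gy and at 777, 334, 264 and 336 CPM at 20 Gy. All 4 irradiated tumours were above all controls, and replicate 1 stood highest (6.75-fold, adjusted p = 0.0029). Rsad2, the gene of viperin, was at 12.5, 13.3, 25.2 and 10.4 CPM and at 239, 148.1, 101.2 and 159 CPM. The groups were again fully separate (10.6-fold, log2 fold change 3.4 ± 0.42, adjusted p = 0.000909). Ifit3b showed the largest log2 fold change of the list, 3.42 ± 0.5, from 11.9 to 20.5 CPM to 91.2 to 284 CPM. Herc6, an E3 ligase for ISG15 in the mouse, had the smallest p of all tested genes: 13.3, 12.3, 14.6 and 9.84 CPM rose to 63.4, 40.7, 40.1 and 42.9 CPM (3.74-fold, adjusted p = 0.000611). Oas2, Oas1g and Oasl1 of the oligoadenylate synthetase family rose 5.03-, 6.56- and 9.2-fold, and Bst2, the gene of tetherin, 4.4-fold. Without any 1 tumour 31 to 34 members were called, with Xist as a covariate 33 and with the title digit 24. In the 4 unirradiated tumours the summed level of the list was 2009.9, 2280, 3084 and 1608 CPM, against 11643, 7369, 7215 and 8761 CPM after irradiation. The lowest irradiated tumour was thus above the highest control.

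The Schlafen and PYHIN families are also known to be induced by interferon. Of 17 Schlafen genes and PYHIN genes (the Ifi200 family, which includes DNA-binding proteins) 16 rose and 0 fell, with a median log2 fold change of 2.07. Ifi213 showed the largest change, from 0.238, 0.158, 0.362 and 0.226 CPM to 2.84, 2.79, 4.12 and 3.56 CPM. Its 7 to 16 reads per unirradiated library make the size of this 13.4-fold difference less certain than its direction (log2 fold change 3.74 ± 0.42, adjusted p = 0.000909). Slfn4, a Schlafen gene of myeloid cells, was at 20.8, 16.2, 14.6 and 25.1 CPM and at 249.8, 153, 137.7 and 112.8 CPM. It rose 8.52-fold, with no overlap (adjusted p = 0.000611). The count of 16 stayed between 15 and 17 in every fit without 1 tumour and was 15 with the title digit as a covariate. Members of the Ifit, Oas, Schlafen, PYHIN, guanylate-binding protein and class I gene clusters have close copies beside them, so reads may be shared between them and single members are less certain than their group.

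The interferon-inducible GTPases of the GBP and IRG families, best known as interferon gamma targets, rose in 9 of 19 members and fell in 0. Their median log2 fold change was 1.59. Gbp9 was at 44.9, 39.6, 70.1 and 23.3 CPM at 0 Gy and at 134.1, 128.5, 131.3 and 169 CPM at 20 Gy. The groups did not overlap (3.17-fold, edgeR's quasi-likelihood adjusted p = 0.00422). Gbp11 rose 4.76-fold (adjusted p = 0.00422), whereas Gvin1, Gbp10 and Gbp2 with log2 fold changes of 2.3, 1.93 and 1.33 were not called. This list depended on single controls: 3 members were called without 0 Gy replicate 1 or 2, 5 without replicate 4 and 17 without replicate 3. It held 4 calls without 20 Gy replicate 3 or 4, 2 with the title digit and 6 with Xist as a covariate, and 18 by DESeq2.

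**Figure D2:**
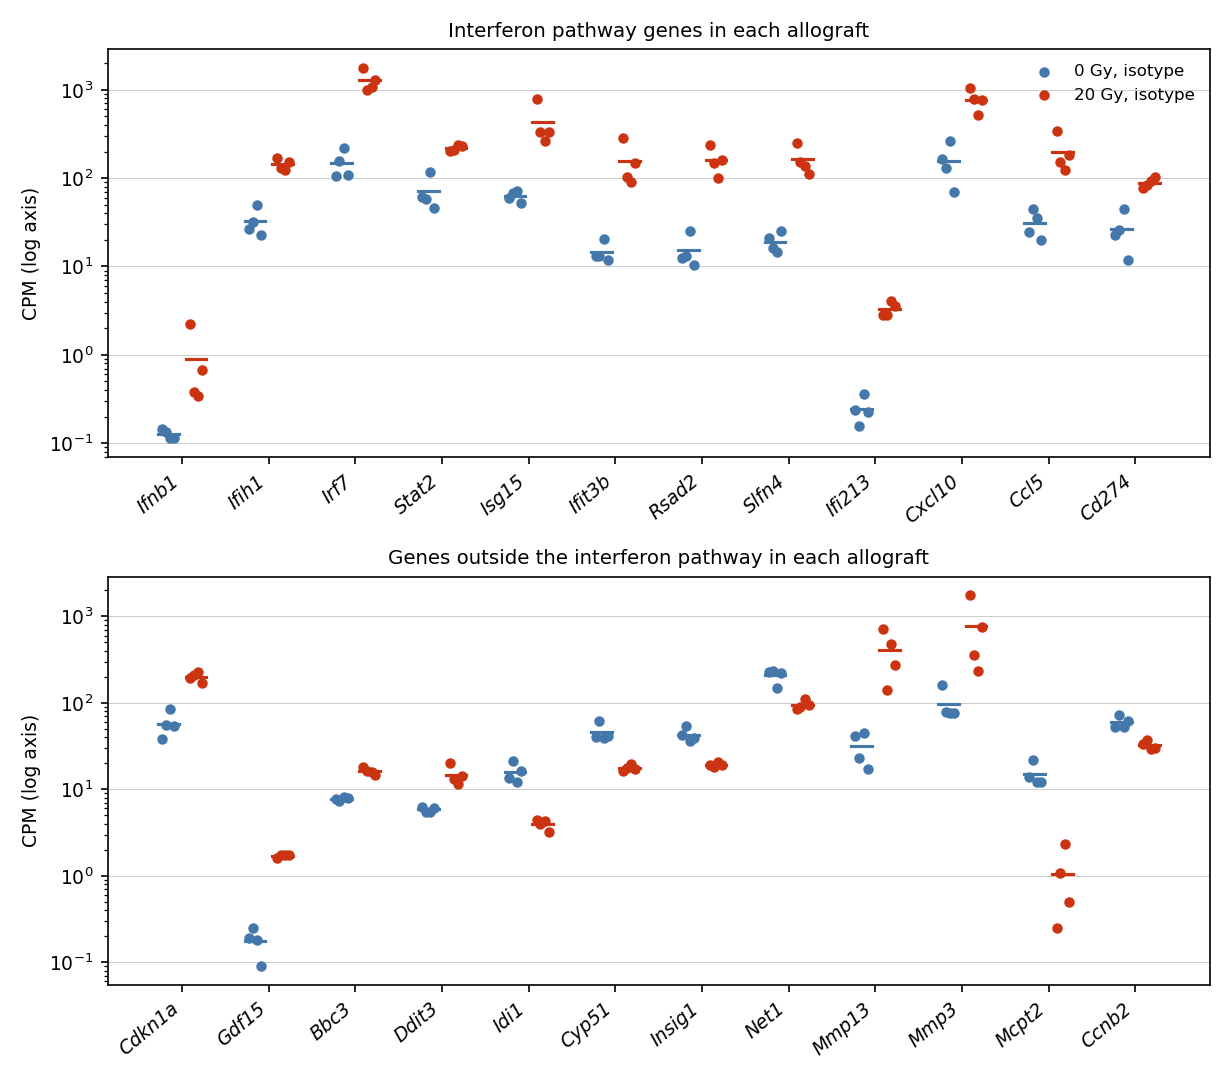
CPM on a log axis for 12 genes of the interferon pathway (top) and 12 other named genes (bottom); each dot is 1 allograft, blue for 0 Gy and red for 20 Gy, n = 4 per dose, and bars are group means. For Isg15 the controls lie between 52.9 and 72.1 CPM and the irradiated tumours between 264 and 777 CPM, while Idi1 runs the other way, from 12.3 to 21.2 CPM down to 3.23 to 4.41 CPM.

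In antigen presentation by MHC class I 9 of 22 members were called higher and 0 lower, with a median log2 fold change of 0.99. All 9 were class I heavy chain genes or Tap1, the peptide transporter gene. H2-Q6 was at 180.4, 147.2, 274 and 76.1 CPM at 0 Gy and at 585, 574, 589.9 and 686 CPM at 20 Gy. The irradiated tumours were close to each other and all above the controls (3.59-fold, adjusted p = 0.00481). H2-T23, the gene of the non-classical molecule Qa-1, rose 2.73-fold (adjusted p = 0.012), a call lost without 0 Gy replicate 1. B2m, the light chain shared by class I molecules, was at 1747, 2289, 2653 and 1190.2 CPM and at 3439, 2805, 3255 and 3596 CPM. It did not pass the test although the groups did not overlap (log2 fold change 0.73 ± 0.24, adjusted p = 0.0956). The number of class I calls was 2 without 0 Gy replicate 1 or 2, 4 without replicate 4, 15 without replicate 3 and 5 without 20 Gy replicate 1 or 4. It was 5 with Xist and 0 with the title digit as a covariate, and 15 by DESeq2. In the class II list 1 of 12 rose, beside 4.4% of all tested genes. It was Ctss, the gene of a protease that trims the invariant chain (2.47-fold, adjusted p = 0.0195). Its call was lost without 0 Gy replicate 1, 2 or 4 or 20 Gy replicate 1 or 3 and with either covariate, which left 0 calls in the list. H2-Aa stood at 837 to 1615 CPM against 1586 to 2447 CPM, with overlap (adjusted p = 0.413).

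Cd274, the gene of PD-L1, the ligand of PD-1, was at 22.8, 26, 44.8 and 11.9 CPM at 0 Gy and at 76.6, 83.5, 92 and 102.7 CPM at 20 Gy. Every irradiated tumour was above every control, a 3.37-fold difference (log2 fold change 1.75 ± 0.4, edgeR's quasi-likelihood adjusted p = 0.0214). The call was kept with either covariate and lost without 0 Gy replicate 1, 2 or 4 or 20 Gy replicate 3 or 4. Pdcd1, the gene of PD-1, was at 8.98, 20.1, 14.3 and 5.63 CPM and at 6.88, 8.3, 13.2 and 7.91 CPM, with overlap (log2 fold change −0.43 ± 0.39, adjusted p = 0.623). Of 17 checkpoint genes tested 4 rose and 0 fell: beside Cd274 these were Lgals9, the gene of galectin-9 (2.71-fold, adjusted p = 0.0029), Cd244a, a receptor of NK cells and myeloid cells (3.69-fold, adjusted p = 0.00683), and Vsir, the gene of VISTA. Ctla4, Tigit, Lag3 and Havcr2 gave log2 fold changes of −0.29, 0.28, 0.88 and 0.82 and were not called. The list held 2 calls without 0 Gy replicate 1, 2 or 4 or 20 Gy replicate 3 or 4, and 2 with the title digit as a covariate.

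Among genes of T cell chemokines and their receptors 4 of 16 rose and 0 fell: Cxcl10, Cxcl11, Ccl5 and Cxcl16. Cxcl10 was at 166, 129.8, 263 and 68.8 CPM at 0 Gy and at 1036, 778, 518 and 768 CPM at 20 Gy. No tumour overlapped (4.94-fold, adjusted p = 0.0145). Cxcl11 and Ccl5 rose 7.59- and 6.38-fold (adjusted p = 0.00987 and 0.0077), with Ccl5 at 24.5, 45.2, 35.1 and 20.1 CPM against 341, 152, 124.3 and 181 CPM. For Ccl5 the call was kept in all 8 fits without 1 tumour but lost with the title digit as a covariate, for Cxcl10 it was lost without 0 Gy replicate 1, 2 or 4, and for Cxcl11 without 0 Gy replicate 4. Cxcl9, which shares the receptor CXCR3 with Cxcl10 and answers mainly to interferon gamma, was not called at a log2 fold change of 1.11. The list had a median of 0.9 and 0 calls with the title digit as a covariate. The list held 2 calls without 0 Gy replicate 1 or 2 and 1 without replicate 4. Ccl7, Ccl4 and Ccl2 rose among 17 monocyte chemokine genes (4.21-fold for Ccl7, adjusted p = 0.0236), and 0 fell. For Ccl7 20 Gy replicate 1 stood at 814 CPM, while the other irradiated tumours were at 177 to 238 CPM and the controls at 79.2 to 93.7 CPM. Without 0 Gy replicate 1, 2 or 4 or 20 Gy replicate 1 this list had 0 calls, without 20 Gy replicate 4 it had 1, with the title digit as a covariate 0, and by DESeq2 6. Among 8 neutrophil chemokine and receptor genes 0 were called in either direction by edgeR (3 at an unadjusted p under 0.05) and 1 higher by DESeq2, with Csf3 and Cxcl2 at log2 fold changes of 1.75 and 1.21 and Ppbp, a platelet chemokine gene, at −3.74.

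Of 20 cytokine genes 9 rose and 0 fell, with a median log2 fold change of 1.03. Il27 and Ebi3 encode the 2 subunits of interleukin 27. Ebi3 was at 3.71, 4.26, 9.38 and 4.73 CPM at 0 Gy and at 20.7, 19.4, 17.5 and 16.8 CPM at 20 Gy, without overlap (3.37-fold, adjusted p = 0.00998). Il27 rose 3.25-fold (adjusted p = 0.01), and both calls were kept with either covariate but lost without 0 Gy replicate 2 or 4. Il1a had the largest log2 fold change, 3.2 ± 0.87 (adjusted p = 0.0449), but its groups overlapped, at 0.428, 0.248, 0.181 and 0.113 CPM against 4.93, 1.23, 0.367 and 2.42 CPM. Of the 8 fits without 1 tumour its call was kept in that without 20 Gy replicate 3, and it was lost with either covariate. Tnf, Il18bp, Il15, Il1rn, Tnfsf10 and Tnfsf13b were the others called, whereas Il6 and Il1b gave 0.27 and 0.84. The list held 0 calls without 0 Gy replicate 2 or 4, 3 without 0 Gy replicate 1, 4 or 5 without 20 Gy replicate 1, 3 or 4, and 2 with the title digit as a covariate.

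The complement list rose in 5 of 15 genes and fell in 0, with Cfb, the factor B gene of the alternative pathway, at 1.66, 2.21, 3.44 and 1.22 CPM and at 11.3, 13.8, 16.3 and 14.6 CPM. All irradiated tumours exceeded the controls (6.56-fold, edgeR's quasi-likelihood adjusted p = 0.014). C3ar1, the receptor of complement fragment C3a on myeloid cells, rose 3.42-fold (adjusted p = 0.00808). The complement list held 1 call without 0 Gy replicate 1, 2 or 4, 2 or 3 without 20 Gy replicate 2, 3 or 4, 0 with the title digit as a covariate and 8 by DESeq2. In the NF-kappaB list 4 of 18 rose and 0 fell (Icam1, Traf1, Nfkbia and Birc3). Icam1, an adhesion molecule for leukocytes, was at 53.1, 43.8, 77.9 and 37.4 CPM and at 155, 159, 153 and 174 CPM. The irradiated values were tightly grouped above the controls (3.02-fold, adjusted p = 0.00181), and the call was kept in all 8 fits without 1 tumour. That list held 10 calls without 0 Gy replicate 3, 2 with the title digit as a covariate and 8 by DESeq2.

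**Figure D3:**
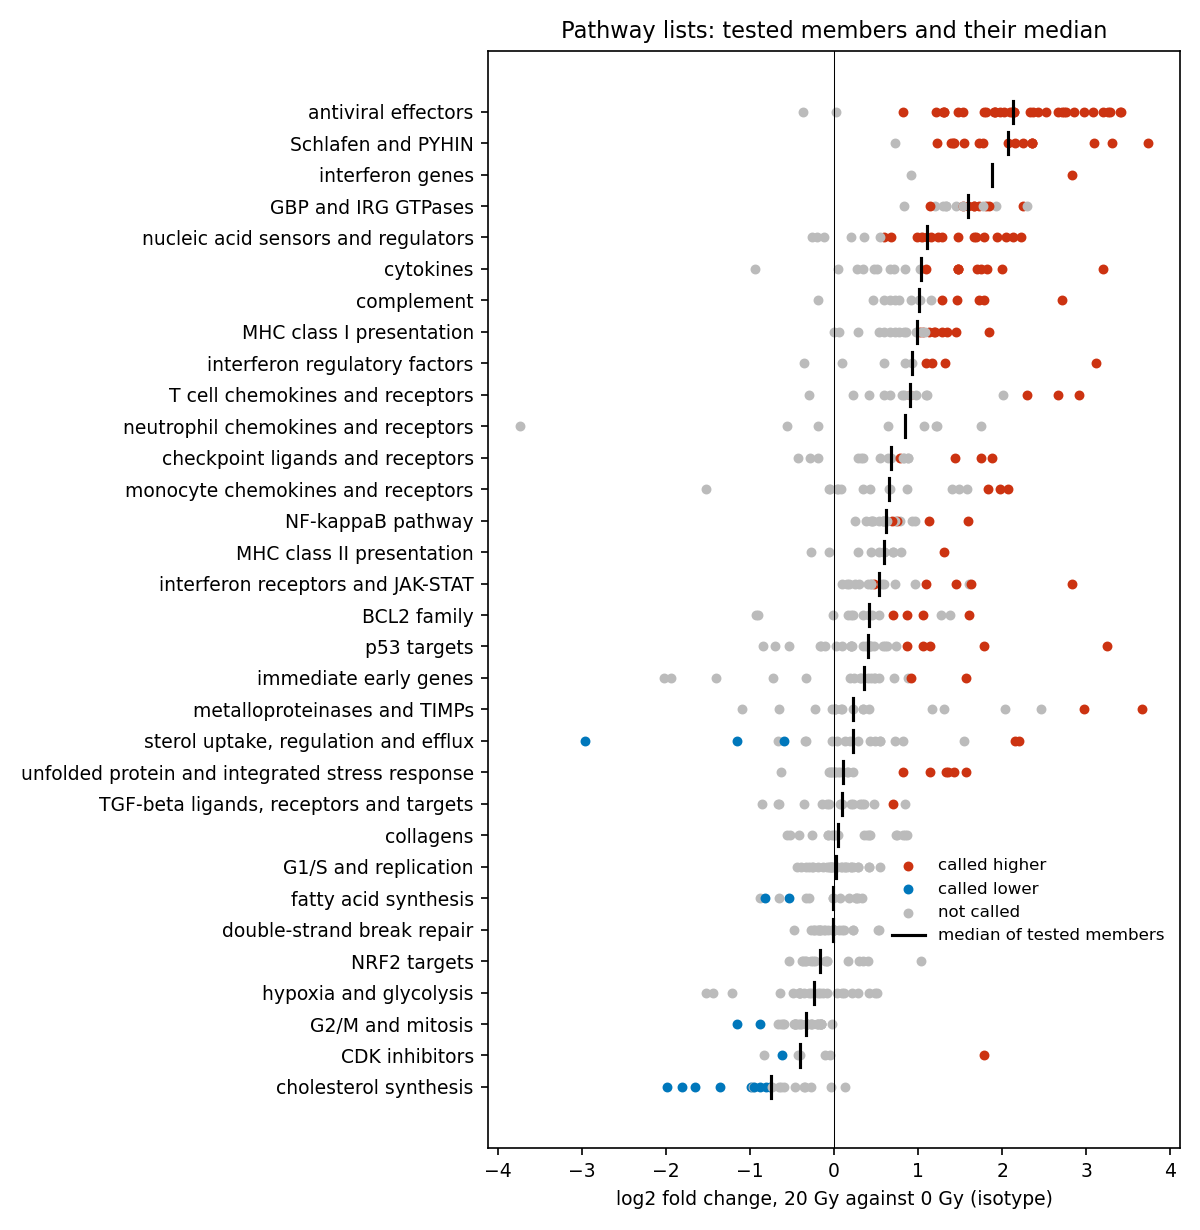
Log2 fold changes of 20 Gy against 0 Gy for the tested members of 32 pathway lists, 1 row per list, red and blue where a member was called higher or lower, gray where it was not, with the list's median as a black bar. The medians run from 2.13 in the antiviral effectors to −0.75 in cholesterol synthesis, beside 0.00 over all tested genes.

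Among lymphocyte markers the calls were in genes of cytotoxic and NK cells. Of 10 T cell markers 0 were called by edgeR or DESeq2 (0 at an unadjusted p under 0.05), and their summed level was 60.9 to 137.1 CPM at 0 Gy and 72.5 to 161 CPM at 20 Gy, with overlap. Cd8a was at 16.8, 20.7, 24.8 and 10.2 CPM and at 13.1, 16.1, 27.1 and 22.6 CPM (log2 fold change 0.12 ± 0.4, adjusted p = 0.921). Cd3e and Foxp3, the latter the factor of regulatory T cells, gave −0.04 ± 0.42 and 0.24 ± 0.41. Of 10 markers of cytotoxic and NK cells 4 rose and 0 fell: Gzma, Gzmb, Eomes and the NK receptor gene Ncr1. Gzmb, which encodes granzyme B, was at 31, 49.96, 79.2 and 15.3 CPM and at 163, 130.6, 169.5 and 202 CPM. Each irradiated tumour exceeded each control (3.79-fold, adjusted p = 0.0294). The call was kept without 0 Gy replicate 3 or 20 Gy replicate 2 and lost in the other 6 such fits, and it was lost with the title digit as a covariate. Gzma (3.84-fold, adjusted p = 0.0445) kept its call, among these 8 fits, in that without 0 Gy replicate 2, the control that stood at 32.4 CPM while the others were at 3.6 to 8.13 CPM. Eomes kept its call in all 8 fits. The summed level of the cytotoxic and NK list was 49.6 to 187 CPM at 0 Gy and 267 to 415 CPM at 20 Gy, without overlap, and 0 of its members were at 0 in all 8 tumours. The list held 1 call without 0 Gy replicate 1 or 4 or 20 Gy replicate 1, 3 or 4, 2 without 0 Gy replicate 2, and 0 with the title digit as a covariate.

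Of 12 macrophage markers Fcgr1, Aif1 and Cd68 rose and 0 fell. Fcgr1, the high-affinity IgG receptor gene and itself inducible by interferon, was at 76.7, 85.7, 117.6 and 69.2 CPM and at 331, 209.7, 249 and 252 CPM. The groups were separate (2.98-fold, edgeR's quasi-likelihood adjusted p = 0.00321), and the call was kept in all 8 fits without 1 tumour. Adgre1, which encodes F4/80, was at 78.1, 93.7, 164 and 77.3 CPM and at 338, 235, 245 and 242 CPM. These values did not overlap, but the gene was not called (log2 fold change 1.36 ± 0.41, adjusted p = 0.0727). Mrc1 and Cd163, found on tissue-resident macrophages, gave −0.61 and −1.15 and were not called. The summed macrophage level was 1897 to 2828 CPM at 0 Gy and 3402 to 5354 CPM at 20 Gy. The list held 1 call without 0 Gy replicate 1, 2 or 4 or 20 Gy replicate 1, 3 or 4, 1 with either covariate and 6 by DESeq2. Ly6c2, the Ly6C gene of inflammatory monocytes, was at 25.1, 41.1, 60.7 and 19 CPM and at 108.2, 245, 323 and 274 CPM, with no overlap (6.51-fold, adjusted p = 0.0125). The call was lost without 0 Gy replicate 1, 2 or 4 and kept with either covariate. Of 8 monocyte markers 2 were called higher, and without 0 Gy replicate 1, 2 or 4 the count was 0. The summed monocyte level overlapped between doses, at 1978 to 2666 CPM and 1564 to 4067 CPM, with 20 Gy replicate 1 the lowest of the 8 tumours. The neutrophil, B cell, regulatory T cell and conventional dendritic cell lists had 0 calls by edgeR (3, 1, 1 and 2 members at an unadjusted p under 0.05). DESeq2 called 1 B cell marker and 1 neutrophil marker higher. Most neutrophil markers leaned lower: 6 of 9 log2 fold changes were negative, with a median of −0.56 and a range of −4.16 to 1.31. The fit of only the 8 tumours compared called 1 neutrophil marker higher and 1 lower.

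Mast cell markers had log2 fold changes of the other sign. All 8 were negative, with a median of −1.68. Of these markers 1 was called lower, beside 0.744% of all tested genes, and 7 were not called. In 2 of the 8 all irradiated tumours lay below all controls, beside 4.46% of all tested genes. Mcpt2, the gene of a mast cell protease, was at 13.9, 22, 12 and 12.2 CPM at 0 Gy and at 0.249, 1.08, 2.34 and 0.494 CPM at 20 Gy. The groups were far apart (14.5-fold lower, log2 fold change −3.86 ± 0.72, adjusted p = 0.00698). The call was kept in all 8 fits without 1 tumour and lost with the title digit as a covariate. Tpsb2 stood at 14.5 to 41.9 CPM against 2.19 to 14.3 CPM, also without overlap, and did not pass the test (adjusted p = 0.183). The summed mast cell level was 55.1 to 157 CPM against 8.9 to 57 CPM, the highest irradiated tumour lying just above the lowest control.

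**Figure D4:**
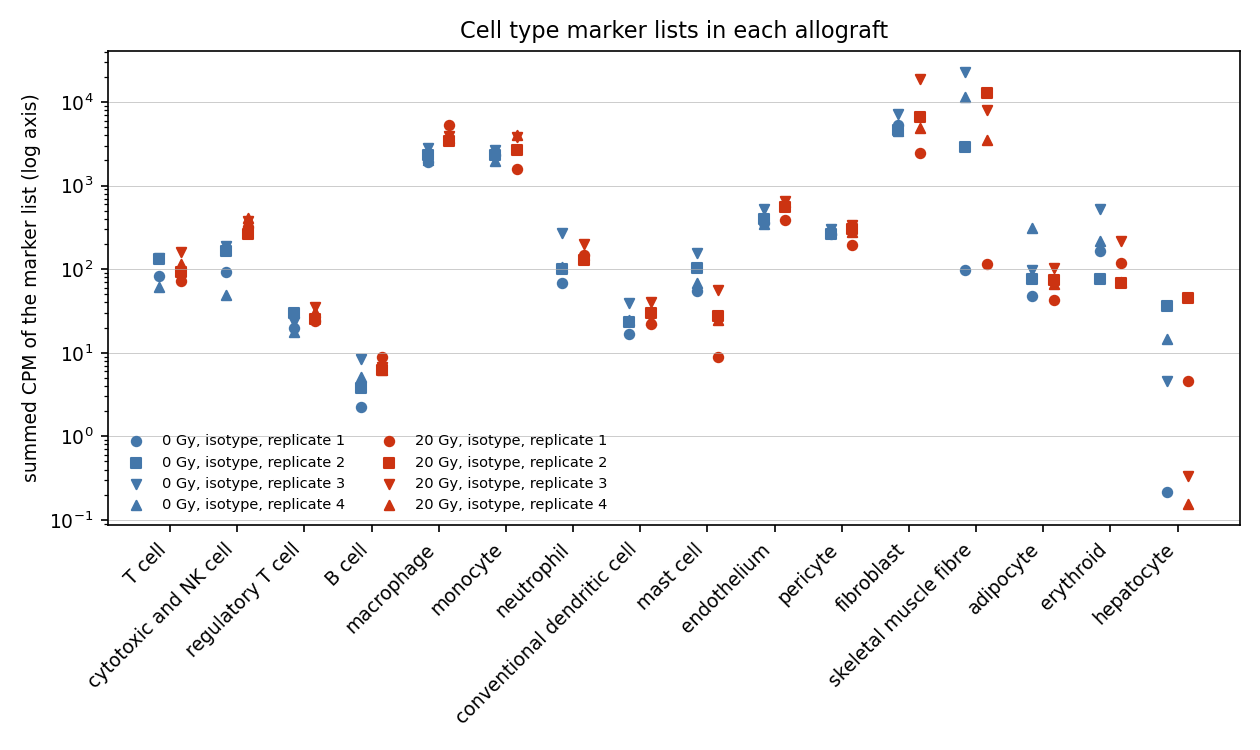
Summed CPM (log axis) of 16 cell type marker lists in each of the 8 allografts, blue for 0 Gy and red for 20 Gy, with a symbol per replicate. The macrophage sums (1897 to 2828 CPM and 3402 to 5354 CPM) do not overlap between doses, whereas the skeletal muscle fibre sums span 96.5 to 22699.6 CPM within the 0 Gy group alone.

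Kdr, the VEGF receptor gene of endothelium, was the 1 called member of 10 endothelial markers (2.32-fold, adjusted p = 0.0204), beside 4.4% of all tested genes called higher. It was at 24.8, 31.2, 43.2 and 23.1 CPM and at 54.6, 63.2, 77.8 and 88.4 CPM without overlap. Its call was lost without 0 Gy replicate 1, 2 or 4 or 20 Gy replicate 4 and with either covariate. Pecam1, another endothelial marker, was at 71.7 to 134.4 CPM and 88.6 to 191 CPM (adjusted p = 0.228). Of 16 skeletal muscle fibre genes 0 were called by edgeR or DESeq2 (0 at an unadjusted p under 0.05), and Ckm, the muscle creatine kinase gene, ranged from 5.56 to 2260.5 CPM at 0 Gy and from 4.08 to 1013 CPM at 20 Gy. With the muscle level as a covariate 937 genes were called, close to the 912 without it. Of 8 adipocyte genes 6 had negative log2 fold changes, down to −5.32 for Cfd, with a median of −4.02. Counting both directions, 6 of the 8 had an unadjusted edgeR p under 0.05. By edgeR 0 were called lower and by DESeq2 2. Adipoq, the adiponectin gene, was at 0, 0.608, 2.44 and 16.6 CPM and at 0.0192, 0.126, 0.959 and 0 CPM, so that 0 Gy replicate 4 stood far above the other 7 tumours. Lipe, a lipase gene also expressed outside fat, was the only adipocyte list member called (higher, 1.71-fold, adjusted p = 0.0347), and its groups overlapped. Among the 8 fits without 1 tumour the call was kept without 0 Gy replicate 3 or 20 Gy replicate 1, and it was lost with either covariate. The hepatocyte gene Alb reached 22.2 CPM in 0 Gy replicate 2 and 27.5 CPM in 20 Gy replicate 2 and lay between 0.026 and 6.79 CPM in the other 6 tumours; livers were also collected from mice of the series, and whether these reads come from handling was not tested. Pmp22 fell as 1 of 6 Schwann cell markers (log2 fold change −0.49, adjusted p = 0.0459), a call kept in 0 of the 8 fits without 1 tumour. The 6 erythroid and 3 platelet markers tested all had negative log2 fold changes, with medians of −1.16 and −1.61, and 0 were called by edgeR (1 and 2 at an unadjusted p under 0.05), while DESeq2 called 1 platelet marker lower.

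Genes known as p53 targets rose in a small subset. The line is of the tumour model made with floxed p53 alleles, and whether these changes passed through p53 was not tested. Of 28 targets 5 rose and 0 fell (Gdf15, Cdkn1a, Sesn2, Bbc3 and Pmaip1), and the median was 0.4. Cdkn1a was at 37.7, 55.2, 84 and 53.5 CPM at 0 Gy and at 194, 208, 226 and 170.4 CPM at 20 Gy. The lowest irradiated value was above the highest control by more than the spread within either group (3.47-fold, log2 fold change 1.79 ± 0.26, edgeR's quasi-likelihood adjusted p = 0.00174). Gdf15, a stress-induced cytokine gene, was at 0.19, 0.248, 0.181 and 0.0905 CPM and at 1.61, 1.74, 1.75 and 1.74 CPM, from 4 to 11 and from 62 to 84 reads. The irradiated tumours were nearly equal and far from the controls (9.5-fold, adjusted p = 0.000909). Bbc3, which encodes the pro-apoptotic protein PUMA, was at 7.68, 7.23, 8.14 and 7.94 CPM and at 18, 16.1, 15.9 and 14.6 CPM. Both groups were narrow and separate (2.08-fold, adjusted p = 0.0029). Sesn2 rose 2.21-fold (adjusted p = 0.00233). Cdkn1a, Gdf15, Bbc3 and Sesn2 kept their calls in all 8 fits without 1 tumour and with either covariate. Mdm2, the gene of the ubiquitin ligase that removes p53, gave a log2 fold change of 0.38 ± 0.13 (adjusted p = 0.129), and Ccng1, Eda2r and Zmat3, other known targets, gave 0.09, −0.11 and 0.43 and were not called. Cdkn1a, Sesn2, Bbc3, Pmaip1 and Gdf15 are also known to respond to signals other than p53.

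Sesn2 also belongs to the stress response that acts through ATF4. In the list of unfolded protein and integrated stress response genes 6 of 18 rose and 0 fell: Atf3, Chac1, Trib3, Ddit3, Sesn2 and Asns. Ddit3, the gene of CHOP, was at 6.32, 5.52, 5.52 and 6.02 CPM and at 19.9, 13.1, 11.6 and 14.2 CPM. The groups did not overlap (2.52-fold, adjusted p = 0.00249), and the call was kept in all 8 fits without 1 tumour and with either covariate. The chaperone genes Hspa5 and Hsp90b1, which mark the unfolded protein branch, had log2 fold changes of 0.01 and −0.06. The list held 3 calls without 0 Gy replicate 1, 2 or 4, 4 calls without any 1 irradiated tumour, and 3 with the title digit as a covariate. Atf3 and Zfp36 were also the 2 of 19 immediate early genes that rose, beside 4.4% of all tested genes, and 0 fell. Zfp36 rose by 0.92 ± 0.18 on the log2 scale (adjusted p = 0.00802). Without 0 Gy replicate 1, 2 or 4 the call of Atf3 was lost and 1 immediate early gene was called. In double-strand break repair 0 of 27 genes were called by edgeR or DESeq2 (1 at an unadjusted p under 0.05), with a median of −0.01 and log2 fold changes between −0.48 and 0.53. Among 17 BCL2 family genes tested 4 rose and 0 fell, the pro-apoptotic Bbc3 and Pmaip1 and the anti-apoptotic Bcl2a1a and Bcl2l1 (3.06- and 1.62-fold, adjusted p = 0.0304 and 0.0257). The BCL2 family list held 1 call without 0 Gy replicate 2 or 4 or 20 Gy replicate 1, 2 calls without 0 Gy replicate 1 or 20 Gy replicate 3 or 4, and 1 with either covariate.

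Cell cycle genes were listed by phase. In the G1/S and replication list 0 of 30 genes were called by edgeR or DESeq2 (3 at an unadjusted p under 0.05) and the median was 0.02. In the G2/M and mitosis list all 30 log2 fold changes were negative, with a median of −0.33, and 2 genes fell, beside 0.744% of all tested genes. In 8 of the 30 all irradiated tumours lay below all controls, beside 4.46% of all tested genes. Ccnb2, a mitotic cyclin gene, was at 52.2, 72.9, 53 and 61.7 CPM and at 33.3, 37.1, 29.6 and 30.4 CPM, without overlap (1.84-fold lower, edgeR's quasi-likelihood adjusted p = 0.0174), a call lost without 0 Gy replicate 2 or 20 Gy replicate 4. Cenpa, the centromeric histone gene, fell 2.23-fold (adjusted p = 0.0278) with 1 control inside the irradiated range, and among the 8 fits without 1 tumour its call was kept without 0 Gy replicate 3 or 20 Gy replicate 1. Mki67, the proliferation marker, was at 145.8, 164, 218 and 154 CPM and between 99.1 and 179 CPM in the 4 irradiated tumours, with overlap (log2 fold change −0.32 ± 0.34, adjusted p = 0.688). The G2/M list held 0 calls without 0 Gy replicate 2 or 20 Gy replicate 4, 4 without 0 Gy replicate 3, 3 without 20 Gy replicate 1, 1 in each other such fit, 0 with the title digit as a covariate and 6 by DESeq2. Of the CDK inhibitors only Cdkn1a rose, and Cdkn1b, the gene of p27, fell 1.53-fold (adjusted p = 0.0278), a call kept with Xist as a covariate and, among the 8 fits without 1 tumour, in that without 0 Gy replicate 3.

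Cholesterol synthesis held more genes that fell than any other list. Of 20 cholesterol synthesis genes 9 fell and 0 rose, beside 0.744% of all tested genes, and the median log2 fold change was −0.75. Idi1, isopentenyl diphosphate isomerase, was at 13.5, 21.2, 12.3 and 16.3 CPM at 0 Gy and at 4.41, 3.97, 4.26 and 3.23 CPM at 20 Gy. All irradiated tumours lay below all controls (3.98-fold lower, log2 fold change −1.99 ± 0.22, adjusted p = 0.000909). Cyp51, lanosterol demethylase, was at 39.8, 60.8, 39.6 and 41.6 CPM and at 16.3, 17.8, 19.5 and 17.1 CPM. Again no tumour overlapped (2.57-fold lower, adjusted p = 0.00267). Fdps, Acat2, Msmo1, Hmgcs1, Mvd and Fdft1 also fell, between 3.51-fold (Fdps) and 1.69-fold (Fdft1). Fdps averaged only 1.72 CPM at 0 Gy and 0.487 CPM at 20 Gy, so the size of its fall is less certain. Idi1 and Cyp51 kept their calls in all 8 fits without 1 tumour and with either covariate. The list held 5 calls without 0 Gy replicate 2, 6 to 8 in the other fits without 1 tumour, 2 with the title digit as a covariate and 14 by DESeq2. The summed level was 568, 728, 552 and 553 CPM at 0 Gy and 356, 345, 383 and 378 CPM at 20 Gy, without overlap.

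Uptake, efflux and feedback genes of the same pathway moved in both directions, 2 of 20 rising and 3 falling. Insig1, which retains the sterol-sensing SREBP complex in the endoplasmic reticulum and is itself an SREBP target, fell 2.22-fold (edgeR's quasi-likelihood adjusted p = 0.00381), from 36.2 to 53.5 CPM to 18.2 to 20.8 CPM. Stard4 fell 1.52-fold. In the opposite direction Abcg1, a sterol exporter gene, rose 4.45-fold, from 45.5, 42.3, 104.8 and 32.5 CPM to 265, 199, 250 and 287 CPM with no overlap (adjusted p = 0.00558). Ch25h, the gene of cholesterol 25-hydroxylase, was at 20.2, 13.2, 21.4 and 21.2 CPM and at 221, 48, 30.8 and 48.6 CPM. It rose 4.59-fold (adjusted p = 0.0406), a call lost without any 1 of the 4 controls, without 20 Gy replicate 1 or 4, and with either covariate. Insig1 and Abcg1 kept their calls without any 1 tumour and lost them with the title digit as a covariate. The 2 calls higher became 1 without 0 Gy replicate 1, 2 or 4 or 20 Gy replicate 1 or 4, 3 without 20 Gy replicate 2, 1 with Xist and 0 with the title digit as a covariate, and 6 by DESeq2. The 3 calls lower became 2 without 0 Gy replicate 1 or 2 or 20 Gy replicate 1, 2 or 4, 2 with Xist and 1 with the title digit as a covariate. Among 14 fatty acid synthesis genes Elovl6 and Fads1 fell (1.76- and 1.46-fold, adjusted p = 0.0463 and 0.0453) and 0 rose. Neither kept its call in any of the 8 fits without 1 tumour.

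The promoter of Hmgcs1 is shown because, of the 15 of 20 cholesterol synthesis genes with a RefSeq window searched, it was the 1 that held TCACNCCAC, the core of the sterol regulatory element, before its start site. The 80 bases are on the gene's own strand, with the match in capitals (RefSeq, GRCm38.p6).
Hmgcs1, chr13:119690169-119690248, plus strand: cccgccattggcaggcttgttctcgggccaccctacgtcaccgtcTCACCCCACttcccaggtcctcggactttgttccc
Hmgcs1 was at 59.2, 79.6, 63.4 and 57.7 CPM at 0 Gy and at 28.9, 34, 38.3 and 39.8 CPM at 20 Gy, with the groups apart (1.84-fold lower, edgeR's quasi-likelihood adjusted p = 0.00991). These letters, read on either strand (GTGGNGTGA on the other), were in 1.53% of the windows of genes called lower and in 1.15% of those of all tested genes. Idi1, Cyp51, Insig1 and Mvd had none in the windows searched.

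Among genes of the extracellular matrix, 0 of 19 collagen genes were called by edgeR or DESeq2 (0 at an unadjusted p under 0.05), and the summed collagen level ran from 11823 to 16114 CPM at 0 Gy and from 6086 to 29791 CPM at 20 Gy. Of 19 metalloproteinase and inhibitor genes 2 rose, beside 4.4% of all tested genes: the collagenase gene Mmp13 and the stromelysin gene Mmp3. Mmp13 was at 41.6, 22.8, 44.8 and 17.1 CPM and at 712, 142.5, 484 and 273 CPM. No tumour overlapped, but the irradiated ones were widely spread (12.8-fold, log2 fold change 3.67 ± 0.82, edgeR's quasi-likelihood adjusted p = 0.0187). Mmp3 was at 159.9, 78, 77 and 76 CPM and at 1749.7, 356, 231 and 749 CPM, with replicate 1 highest at both doses (7.89-fold, adjusted p = 0.0278). Both calls were lost without 0 Gy replicate 1, 2 or 4 and with either covariate, and that of Mmp3 also without 0 Gy replicate 3 or 20 Gy replicate 1 or 4. Tgfb1, the transforming growth factor beta 1 gene, rose 1.62-fold (adjusted p = 0.0236) as the 1 called member of 18, near the 4.4% of all tested genes called higher. That call was lost without 0 Gy replicate 1, 2 or 4 or 20 Gy replicate 4 and with either covariate. In the hypoxia and glycolysis list and the NRF2 list 0 of 24 and 0 of 16 genes were called by edgeR (5 and 2 at an unadjusted p under 0.05), and DESeq2 called 1 hypoxia gene lower.

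Among the genes that fell with the smallest p, 4 were outside the lists. Net1, a RhoA exchange factor gene, was at 226, 234, 149.6 and 221 CPM and at 85.1, 90.5, 111.3 and 95.4 CPM, without overlap (2.17-fold lower, edgeR's quasi-likelihood adjusted p = 0.0029). Gas2, whose product binds actin filaments, was at 13.8, 15.7, 9.92 and 19.8 CPM and at 6, 5.11, 3.92 and 4.63 CPM, again without overlap (3.01-fold lower, adjusted p = 0.00249). Tmem184c and Zfp9, a zinc finger gene, fell 1.84- and 1.86-fold (adjusted p = 0.00368 and 0.0039). All 4 kept their calls without any 1 tumour, and Net1 lost it with the title digit as a covariate.

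The anti-PD-1 arm held 4 tumours per dose that share no animal or library with the isotype arm, and it gives the dose effect under PD-1 blockade. Xist ran largely with dose there too. Its log2 level was −1.01, 6.25, −1.69 and −2.15 at 0 Gy and 6.13, 9.19, −0.02 and 6.64 at 20 Gy. The title number began with 4 for 0 Gy replicate 2 and 20 Gy replicate 1 and with 5 for the other tumours of that arm. The part of Xist in the values that follow was not tested. In that arm 703 genes were called (3.96% of those tested), 556 higher (3.13%) and 147 lower (0.828%). Of the 780 genes called higher with isotype, 778 had a positive log2 fold change in the anti-PD-1 arm and 437 were called higher there. Of those called lower, 100.0% had a negative one and 52 were called lower there too. The 79 named called genes all had the same sign, and 53 of them were called. Isg15 gave a log2 fold change of 2.24 there (adjusted p = 0.0126) beside 2.76 with isotype, Cdkn1a 1.75 (0.00483) beside 1.79, Idi1 −1.68 (0.00333) beside −1.99, and Mcpt2 −3.91 (0.011) beside −3.86. Cxcl10, Ccl5, Cd274, Gzmb and Mmp13 gave 1.33, 1.49, 1.28, 1.4 and 1.84 and were not called there. By lists, 27 of 36 antiviral effectors, 16 of 17 Schlafen and PYHIN genes, 0 of 19 GBP and IRG genes and 1 of 22 class I genes rose in that arm, and 10 of 20 cholesterol synthesis genes and 6 of 30 G2/M genes fell.

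The difference between the arms was tested directly as the interaction of dose with antibody. It called 0 of 17746 genes by edgeR's quasi-likelihood test (269 at an unadjusted p under 0.05) and 0 by DESeq2, and the lowest adjusted p among the 93 named genes was 0.864. With 4 tumours per group, a p that misses the threshold does not show that the arms responded alike.

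**Figure D5:**
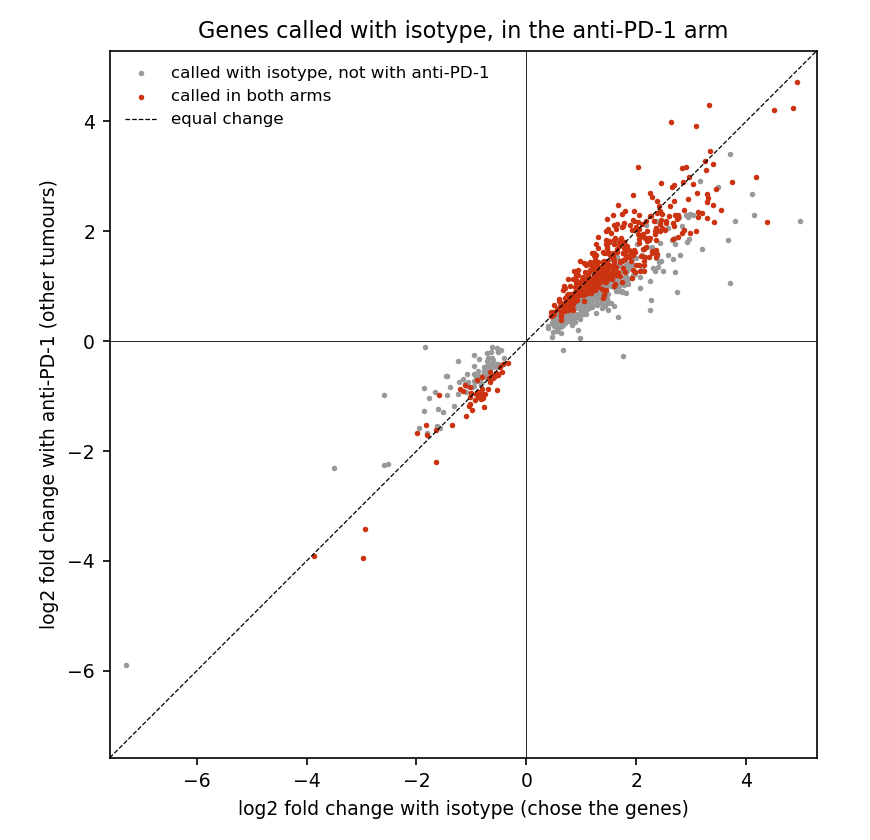
Log2 fold changes of 20 Gy against 0 Gy for the 912 genes called with isotype, in the isotype arm that chose them (x axis) and in the separate anti-PD-1 tumours (y axis); red points were called in both arms and the dashed line marks equal change. Of 780 genes to the right of zero 778 lie above zero on the y axis, and every gene to the left lies below it.

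The same dose with the same isotype antibody was also given to 16 primary sarcomas, where the fit of all 48 tumours called 3532 of 19327 genes (18.3%) with 8 tumours per dose. The interaction of dose with tumour kind called 1 gene by edgeR, 0.00517% of those tested (1914 at an unadjusted p under 0.05; DESeq2 called 4). It was Swap70, the gene of a signalling protein of B cells and mast cells, chosen for mention after its value was seen. In the allografts it was at 75.8, 68.2, 77.6 and 57.5 CPM at 0 Gy and at 120.2, 100.1, 98.5 and 104.7 CPM at 20 Gy, with all irradiated tumours above the controls, and its log2 fold change in the primary tumours was −0.34 ± 0.1. The difference was 0.92 ± 0.17 (edgeR's quasi-likelihood adjusted p = 0.0393). The number of genes called by this interaction was 2 without 20 Gy replicate 3 and 0 without any other 1 of the 8 tumours. Mmp13 showed the largest contrast among the named genes, a log2 fold change of 3.67 here beside 0.00 in primary tumours, but the difference of 3.66 ± 0.84 did not pass the test (edgeR's quasi-likelihood adjusted p = 0.291). For Isg15, Irf7, Cdkn1a and Idi1 the primary tumours gave 2.31, 2.46, 2.21 and −1.95.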

How the data were processed

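Poly(A)-selected RNA of 48 sarcomas was sequenced. The authors deposited raw counts of reads per Ensembl gene for 36854 genes. The submitters' processing notes name Trimmomatic 0.36, STAR, HTSeq and mm10. The annotation and strand setting of the counting are not given in the sources used here, so overlapping and antisense genes are uncertain although the libraries were strand-specific per the labels' protocols. GENCODE M21 gave symbols to 36796 genes.

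edgeR 4.0.16 (filterByExpr, TMM, 2-sided quasi-likelihood F test) was fitted to the 16 allografts with a coefficient per group, adjusting by Benjamini-Hochberg over all genes tested, and genes were called at an adjusted p below 0.05. Standard errors were taken as the absolute log2 fold change over the root of F. The interaction with tumour kind used all 48 tumours. DESeq2 1.42.0, other scalings, filters, samples and covariates (Xist, title digit, muscle level) were alternatives. As a check for libraries deposited more than once, the counts of tumours within a group were compared, and 0 of 12 pairs agreed within sampling noise. Nothing says whether tumours came from separate litters or experiments, and p-values measure the spread between these tumours. Library totals of 38040121 to 53307204 counts make counting error small beside that spread, except for genes of a few reads, which carry no molecular identifiers.

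Named genes were the 12 higher and 8 lower protein-coding genes with the smallest p that reached 5 CPM on average in their higher group, up to 2 called members per direction and the called extremes of each list, and a panel of 24, less a few genes that are not reported here. Other list members are given to show which were called, and were chosen after their values were seen. The comparison, the members and the lists were chosen with earlier results of these data known. Promoter windows came from RefSeq (GRCm38.p6), which held 12330 symbols of tested genes. The fits were checked on simulated counts.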

Additional observations from a re-analysis of the deposited data

Results flagged for a closer look

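Among the named genes, 25 of 186 groups of 4 tumours had 1 tumour standing far from the other 3 by Dixon's criterion at 95%. That criterion gives about 1 in 20 for independent groups of normally distributed values. These groups are genes of the same tumours in CPM without a log scale, so their count cannot be read against that rate. 20 Gy replicate 1 stood highest for Herc6 (63.4 CPM), Oas1g (100.5), Bst2 (1230.5), Isg15 (777), Ccl7 (814), Bcl2a1a (64.6), Ch25h (221) and Adgre1 (338), and lowest for Gdf15 (1.61). 0 Gy replicate 3 stood highest for Aif1 (104.6 CPM), Tlr9 (53.3), Ifit3b (20.5), Cd244a (9.74) and C3ar1 (102.8), and lowest for Net1 (149.6) and Cdkn1b (88.8). 0 Gy replicate 2 stood highest for Cyp51 (60.8 CPM), Gzma (32.4) and Xist (86.9), and lowest for Ch25h (13.2). 20 Gy replicate 4 stood highest for Gbp9 (169 CPM) and H2-Q6 (686), 20 Gy replicate 3 for Pmp22 (51.1 CPM) and H2-Aa (2447), and 0 Gy replicate 1 for Mmp3 (159.9 CPM).

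Swap70 was the gene whose response to dose differed between allografts and primary tumours by the interaction test, with a log2 difference of 0.92.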

How the results depend on the processing

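No paired analysis was possible because each title carries its own number and the labels link no irradiated tumour to an unirradiated one. Of the 912 calls 85.5% were higher and 64.9% beyond 2-fold. Leaving out 1 tumour gave 294 to 1415 calls, 22 to 308 of them lower, with 78.2 to 93% higher and 62.8 to 81.6% beyond 2-fold. DESeq2 called 1530 genes (371 lower), and without an expression filter 55 were lower. The fit of all 48 tumours called 372 (20 lower), the Xist covariate 456 (59 lower) and the title digit covariate 196 (15 lower). Of the 3 fits added after seeing the data, that of title digit 5 called 5 genes (0 lower, 100.0% beyond 2-fold), that of Xist below 10 CPM 0 (0 lower), and that without both muscle-poor tumours 146 (15 lower, 89.7% higher); in the first 2 the lone irradiated tumour is assumed to vary like the other groups. The interaction with tumour kind called 0 genes with DESeq2 size factors, 4 by DESeq2, 0 without a filter and 0 to 2 without 1 tumour. The interaction with antibody called 0 in every fit run. Over 1860 values of named genes 0 calls changed direction, 445 were lost and 5 gained; Xist, Cd3e, Cd8a, Foxp3 and Ckm, not called in any of these fits, changed sign in some. The causes were not tested. Genes of a few reads, such as Ifnb1, Il1a and Gdf15, are limited by depth.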
